A study of Mus musculus with 24 samples.

Results

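The interferon response genes described here were Irf1, Irf7, Irf9, Ifit1, Ifit3, Isg15, Oasl2, Usp18 and Rsad2, 9 genes chosen by their symbol in the annotation of a mouse whole-genome array. On the array 11 probe sets named them, of 45101 in all. For 8 of the 9 genes a probe set named that gene alone, and all 8 passed the filter on dim signal and were among 14086 tested genes. Isg15 was measured only by a probe set shared with the gene model Gm9706, so its values are given under both names and it enters no count.

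The samples were livers of B6C3F1 mice, a hybrid strain used in carcinogenicity bioassays, from a study of Ginkgo biloba extract. Mice of both sexes had received the extract in corn oil by gavage at 200, 600 or 2000 mg/kg, or corn oil alone, 5 days a week for 2 years. The arrays fell into 4 groups of 6. HB arrays held hepatoblastoma, a liver tumour of embryonal appearance. HCC arrays held hepatocellular carcinoma adjacent to such tumours, BDCA_Normal arrays adjacent liver without tumour, and Vehicle_Normal arrays normal liver of the corn oil controls. HB, HCC and BDCA_Normal are taken here as tissue of extract-treated mice, as the study design describes them. The labels gave no dose, sex or animal for any array and did not spell out BDCA. Nothing in them says whether arrays of a group are separate animals, and the p-values therefore reflect only the variation among these arrays.

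Interferons are cytokines that cells release on sensing viral or misplaced nucleic acid. Type I interferons bind the receptor of Ifnar1 and Ifnar2, the kinases Jak1 and Tyk2 activate STAT proteins, and Stat2 with a STAT partner joins Irf9 to form the complex ISGF3, which binds a promoter element called ISRE. Interferon-gamma binds Ifngr1 and Ifngr2 and acts mainly through a STAT dimer at a different element, GAS. In liver both hepatocytes and resident macrophages, the Kupffer cells, respond to interferon.

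Promoter sequence is shown for the members in which a core of either element was found, because factors activated by interferon are known to bind these elements. The RefSeq promoter table (build GRCm38.p6) held 8 of the 9 members at 10 start sites, each as a window of 300 bases from 250 before to 50 after the start. Usp18 was not matched. The letters GAAANNGAAA were searched as the ISRE core, on both strands (TTTCNNTTTC on the other), and TTCNNNGAA, which reads the same on both, as the GAS core. The ISRE core was present in 4 of 8 members, Ifit1, Ifit3, Isg15 and Rsad2. Among all 32851 windows 3.44% held it. The GAS core was present in Irf1 alone of the 8, and 8.30% of all windows held it. Each sequence below runs 5′ to 3′ on the gene's own strand with 20 bases on either side of the matches, and capitals mark the bases of a match. A match is a description of letters, not a measured binding site.
Ifit1: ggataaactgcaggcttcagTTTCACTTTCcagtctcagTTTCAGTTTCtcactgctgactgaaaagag
Ifit3: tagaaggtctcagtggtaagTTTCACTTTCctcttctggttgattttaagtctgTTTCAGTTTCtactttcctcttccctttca
Isg15: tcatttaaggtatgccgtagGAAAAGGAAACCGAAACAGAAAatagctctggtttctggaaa
Rsad2: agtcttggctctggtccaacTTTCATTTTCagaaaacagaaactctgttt
Irf1: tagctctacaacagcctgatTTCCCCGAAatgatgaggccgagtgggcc

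The Ifit1 stretch lay at chr19:34640765-34640833 on the plus strand and held 2 matches, beginning 104 and 85 bases before the start site. The Ifit3 stretch, at chr19:34583353-34583436 on the plus strand, also held 2, beginning 156 and 122 bases before the start. The Isg15 stretch, at chr4:156200855-156200916 on the minus strand, held 3 overlapping matches between 78 and 66 bases before the start. The Rsad2 stretch, at chr12:26456543-26456592 on the minus strand, held 1 match 120 bases before the start. The Irf1 stretch, at chr11:53769904-53769952 on the plus strand, held its GAS core 90 bases before the start. The core letters were not in the windows of Irf7, Irf9 and Oasl2. By gene, the ISRE core was present in 13 of 33 other antiviral effectors, 8 of 15 interferon-gamma GTPases and targets, 8 of 15 ligands, 3 of 12 nucleic acid sensors, 2 of 8 genes of JAK-STAT signalling, 1 of 7 other interferon regulatory factors, 0 of 5 receptors and 0 of 4 genes of Isg15 conjugation. Over all 27025 genes the share was 3.99%.

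The deposited values were MAS5 intensities on a linear scale, scaled to a common trimmed mean. Array medians lay between 144 and 202 in HB and between 75.8 and 145 in the other groups, and between HB and Vehicle_Normal the tested genes had a median log2 difference of 0.34. HCC replicates 1 and 5 stood apart from the other HCC arrays in cell type markers, with values given with those markers. HCC replicates 3 and 4 were near duplicates and were counted as 1 sample. Their log2 differences had a scaled median absolute deviation of 0.18, while the 59 other pairs within groups gave 0.36 to 0.88. The ratio of the 3′ to the 5′ Gapdh probe set, a measure of RNA integrity, was 1.07 to 1.66 on the log2 scale in HB and 1.67 to 2.11 in Vehicle_Normal. Xist, which marks female tissue, exceeded an intensity of 1000 on 5 arrays, 4 of Vehicle_Normal and 1 of BDCA_Normal. No tumour array exceeded it, so sex was not balanced between tumour and control arrays. Leaving out the 5 arrays with high Xist removes 4 of the 6 Vehicle_Normal arrays. A call lost in that setting can reflect sex or the smaller control group, and these cannot be told apart.

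In hepatoblastoma 6 of the 8 tested interferon response genes were lower than in vehicle liver, and none was higher. They were Ifit1, Ifit3, Oasl2, Rsad2, Irf7 and Irf9, with log2 differences from -3.11 to -1.09. Irf1 and Usp18 did not pass the test. The count stands against a high background, since 60.3% of all tested genes passed between these groups, 37.2% higher and 23.1% lower. The median log2 difference of the 8 genes was -1.67, against 0.34 over all tested genes. Differences are in log2(intensity + 16), and "passed" means a limma adjusted p below 0.05 over all tested genes.

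**Figure D1:**
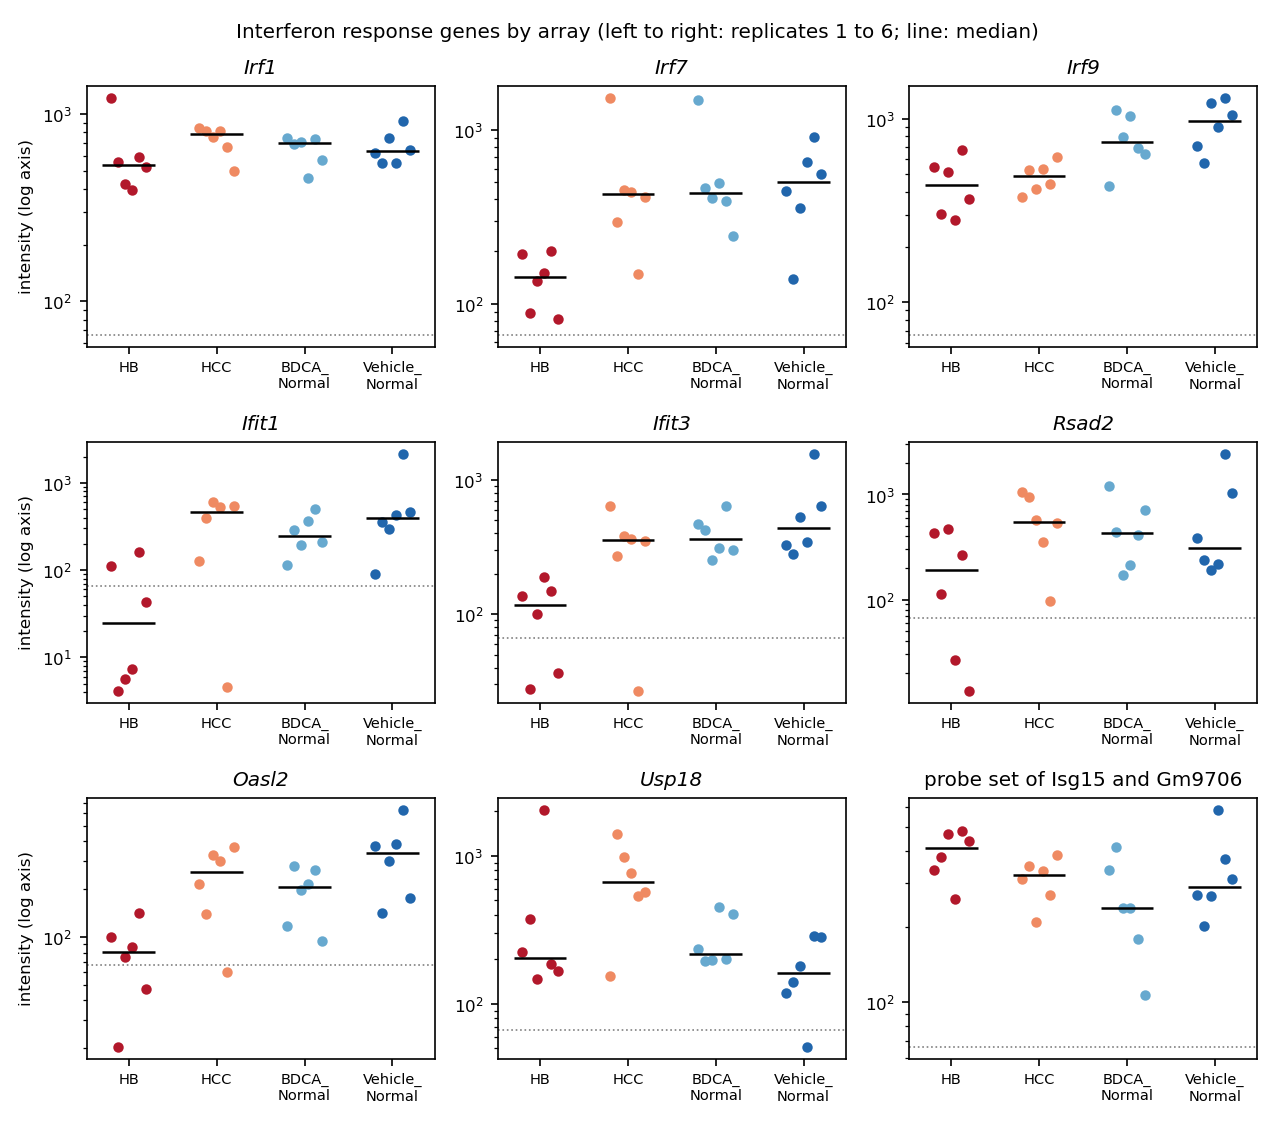
Intensity of each interferon response gene on a log axis, with 1 point per array, replicates 1 to 6 from left to right, a line at the group median and a dotted line at the filter value of 66.3. Every HB array lies below every Vehicle_Normal array for Ifit3, while the groups overlap for the other genes, and Usp18 is highest in 1 HB array and in HCC.

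Irf9 is the DNA-binding partner of the STAT proteins in ISGF3. Its intensity was 281, 436 and 674 in HB as the lowest, median and highest array, 376, 484 and 618 in HCC, 430, 747 and 1109 in BDCA_Normal, and 571, 974 and 1298 in Vehicle_Normal. Both tumour groups lay low, and each overlapped vehicle liver. Irf9 fell by 1.09 ± 0.26 (SE) on the log2 scale from Vehicle_Normal to HB (adjusted p 0.000911). It fell by 0.80 ± 0.26 from BDCA_Normal to HB (adjusted p 0.0119). HB and HCC differed by -0.17 ± 0.27 (adjusted p 0.633).

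Irf7 is the master regulator of type I interferon induction and is itself induced by interferon. Its intensity was 81.8, 143 and 202 in HB, 149, 426 and 1530 in HCC, 245, 437 and 1479 in BDCA_Normal, and 139, 502 and 907 in Vehicle_Normal. All HB arrays lay below all BDCA_Normal arrays, and 1 low array each of HCC and Vehicle_Normal reached into the HB range. Irf7 fell by 1.61 ± 0.46 from Vehicle_Normal to HB (adjusted p 0.0041), by 1.74 ± 0.46 from BDCA_Normal (adjusted p 0.00237) and by 1.53 ± 0.48 from HCC (adjusted p 0.0104). The difference from HCC was -1.08 without HCC replicate 1, its highest array (adjusted p 0.0516).

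Irf1 is induced mainly by interferon-gamma and activates antiviral and antigen presentation genes. Its intensity was 392, 537 and 1224 in HB, 499, 787 and 847 in HCC, 455, 704 and 744 in BDCA_Normal, and 547, 634 and 918 in Vehicle_Normal. The highest HB value, in replicate 1, was above every other array, and the groups overlapped throughout. HB and Vehicle_Normal differed by -0.20 ± 0.24 (adjusted p 0.48). After quantile normalization that difference was -0.63 (adjusted p 0.0354), and after median centring it was -0.57 (adjusted p 0.0375).

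Ifit1 encodes a protein that binds viral RNA lacking the host cap methylation. Its intensity was 4.14, 25.1 and 163 in HB, 4.54, 458 and 608 in HCC, 114, 246 and 504 in BDCA_Normal, and 90.1, 392 and 2149 in Vehicle_Normal. In HB 4 of 6 arrays were below the filter value of 66.3, and 1 HCC array, replicate 5, was as dim. Ifit1 fell by 3.11 ± 0.73 from Vehicle_Normal to HB (adjusted p 0.000758), the largest fall among the members. Dim values make this size depend on the constant added before the logarithm. It was -4.01 with a pseudocount of 1 and -2.20 with 64.

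From BDCA_Normal to HB, Ifit1 fell by 2.45 ± 0.73 (adjusted p 0.00627). From HCC to HB it fell by 2.09 ± 0.77 (adjusted p 0.0260). The difference from HCC lay between -1.88 and -1.72 without HB replicate 2, 3 or 4, or HCC replicate 2, 3 with 4, or 6, with adjusted p between 0.0539 and 0.0836.

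Ifit3 belongs to the same protein family as Ifit1. Its intensity was 27.6, 118 and 189 in HB, 26.9, 358 and 641 in HCC, 255, 365 and 636 in BDCA_Normal, and 281, 440 and 1568 in Vehicle_Normal. No HB array reached the lowest array of either normal group. Between HB and Vehicle_Normal, 1 of the 8 genes, Ifit3, did not overlap, while 37.6% of all tested genes did not. Between HB and BDCA_Normal, 2 of the 8, Ifit3 and Irf7, did not overlap, against 32.5% of all tested genes.

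Ifit3 fell by 2.32 ± 0.52 from Vehicle_Normal to HB (adjusted p 0.000461) and by 1.91 ± 0.52 from BDCA_Normal (adjusted p 0.00302). HB and HCC differed by -1.30 ± 0.55 (adjusted p 0.0505). The lowest HCC array was replicate 5, and without it that difference was -1.94 (adjusted p 0.00108).

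Oasl2 belongs to the family of oligoadenylate synthetases, which are activated by double-stranded RNA. Its intensity was 20.4, 80.6 and 143 in HB, 60.6, 258 and 366 in HCC, 94.9, 207 and 280 in BDCA_Normal, and 141, 337 and 631 in Vehicle_Normal. HB was the dimmest group, with its highest array inside the range of each other group. Oasl2 fell by 1.87 ± 0.42 from Vehicle_Normal to HB (adjusted p 0.00042). It fell by 1.24 ± 0.44 from HCC (adjusted p 0.0202) and by 1.21 ± 0.42 from BDCA_Normal (adjusted p 0.0160). Without HB replicate 2, its dimmest array, these were -0.998 (adjusted p 0.0583) and -0.96 (adjusted p 0.0514). The difference from HCC also missed the threshold without HCC replicates 3 and 4 (-1.07, adjusted p 0.0625) or replicate 6 (-1.02, adjusted p 0.0696).

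Rsad2 encodes viperin, an enzyme that makes a chain-terminating nucleotide against viral polymerases. Its intensity was 13.5, 189 and 468 in HB, 96.2, 552 and 1054 in HCC, 172, 427 and 1211 in BDCA_Normal, and 192, 313 and 2438 in Vehicle_Normal. The HB arrays spread widely and overlapped every other group. Rsad2 fell by 1.73 ± 0.72 from Vehicle_Normal to HB (adjusted p 0.0402). That call was lost without HB replicate 2, 4 or 6, or Vehicle_Normal replicate 5 or 6, with differences between -1.69 and -1.26 and adjusted p between 0.0611 and 0.128. It was also lost without HB replicates 4 and 5 (-1.52, adjusted p 0.0975), without the arrays with high Xist (-1.67, adjusted p 0.189), in the 2 groups alone (adjusted p 0.0556) and with a pseudocount of 64 (-1.33, adjusted p 0.0528). The difference from HCC was -1.76 ± 0.75 (adjusted p 0.0533), and that from BDCA_Normal was -1.60 ± 0.72 (adjusted p 0.0592).

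Rsad2 was the only member with further probe sets of its own, 3 in all. In a fit of every kept probe set, the other two gave log2 differences between HB and Vehicle_Normal of -1.08 (adjusted p 0.0455) and -0.91 (adjusted p 0.0726). The 3 probe sets therefore shared a sign, and 1 of them missed the threshold.

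Isg15 is a ubiquitin-like protein that is attached to other proteins during the interferon response, and Usp18 removes it and also blocks signalling at the receptor subunit Ifnar2. The probe set of Isg15 and Gm9706 had an intensity of 258, 410 and 481 in HB, 208, 322 and 388 in HCC, 107, 237 and 415 in BDCA_Normal, and 202, 289 and 585 in Vehicle_Normal. HB had the highest median, and the groups overlapped. In the fit of every kept probe set it was higher in HB than in BDCA_Normal by 0.70 ± 0.29 (adjusted p 0.0432), and HB and Vehicle_Normal differed by 0.28 (adjusted p 0.41). Which of the genes it measured cannot be told from these values.

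Usp18 had an intensity of 146, 205 and 2048 in HB, 154, 666 and 1415 in HCC, 195, 217 and 453 in BDCA_Normal, and 51.1, 161 and 288 in Vehicle_Normal. Replicate 4 gave the highest HB value, and the other 5 HB arrays lay between 146 and 372. In HCC 5 of 6 arrays were above every BDCA_Normal and Vehicle_Normal array, and replicate 1 was not. HCC and Vehicle_Normal differed by 1.77 ± 0.56 (adjusted p 0.0522), just missing the threshold. Without HCC replicate 1 the difference was 2.22 (adjusted p 0.0115), and without HB replicate 4, which enters the shared estimate of the spread, the adjusted p was 0.0145. Without Vehicle_Normal replicate 5 or 6 the adjusted p was 0.0470 or 0.0480.

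HB and Vehicle_Normal differed in Usp18 by 0.92 ± 0.53 (adjusted p 0.14), the only positive difference among the 8 genes in that comparison. HB and HCC differed by -0.86 ± 0.56 (adjusted p 0.206). Without HB replicate 4 that difference was -1.39 (adjusted p 0.0147).

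**Figure D2:**
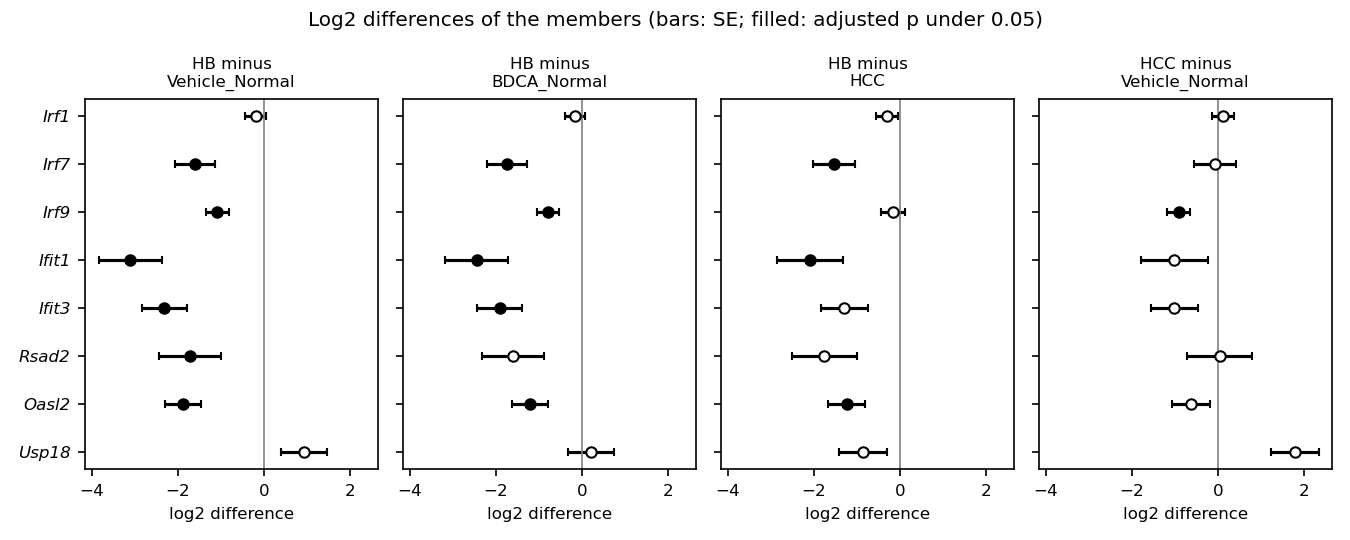
Log2 difference of each of the 8 tested genes in 4 comparisons, with bars for the standard error and filled points where the adjusted p was below 0.05. Filled points all lie left of 0, 6 in HB minus Vehicle_Normal, 5 in HB minus BDCA_Normal, 3 in HB minus HCC and 1 in HCC minus Vehicle_Normal.

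Against the adjacent liver, 5 of the 8 genes were lower in HB, where 56.6% of all tested genes passed, 34.2% higher and 22.4% lower. They were Irf7, Ifit3, Ifit1, Irf9 and Oasl2, and the median log2 difference of the 8 was -1.41. Against HCC, 3 of the 8 were lower in HB, Irf7, Oasl2 and Ifit1, where 50.6% of all tested genes passed, 28.9% higher and 21.6% lower. The median of the 8 was -1.27. The 3 comparisons share the HB samples, so they are not independent of each other. With HCC replicate 5 left out, 5 members were lower in HB than in HCC, with HCC replicate 1 left out 2 were, and 1 was lower when HB replicate 2, HCC replicates 3 and 4, or HCC replicate 6 was left out.

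Array scaling and the choice of arrays moved these counts. Quantile normalization and median centring brought the median of all genes between HB and Vehicle_Normal to -0.01 and -0.03. Under either, 7 members were lower in HB than in Vehicle_Normal and 6 were lower than in HCC. Of all genes called between HB and Vehicle_Normal, 61.8% were higher in HB, and 49.0% after quantile normalization and 46.1% after median centring. The part of all called genes that was lower in HB thus rose too. The larger member counts are therefore not read as particular to the members. Without the 5 arrays with high Xist, 5 members were lower in HB than in vehicle liver, as were 5 without HB replicates 4 and 5, whose hepatocyte markers were the highest of the group.

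In HCC 1 of the 8 genes, Irf9, was lower than in vehicle liver, with none higher, where 7.23% of all tested genes passed, 4.36% higher and 2.88% lower. Irf9 fell by 0.92 ± 0.27 (adjusted p 0.0408). That call was lost when any of HCC replicates 1, 2, 3 with 4 or 5, or Vehicle_Normal replicates 3, 4, 5 or 6, was left out. The difference then lay between -0.95 and -0.82, with adjusted p between 0.0588 and 0.0854. Without the arrays with high Xist it was -1.21 (adjusted p 0.137). The median log2 difference of the 8 was -0.35. Ifit1 differed by -1.02 ± 0.77 (adjusted p 0.479), Ifit3 by -1.02 ± 0.55 (adjusted p 0.281), Irf7 by -0.08 ± 0.48 and Rsad2 by 0.03 ± 0.75.

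Between HCC and BDCA_Normal limma called 0 of the 8 genes, and 1.82% of all tested genes passed, 1.31% higher and 0.511% lower. At an unadjusted p below 0.05, 1 of the 8 was lower, Irf9, by -0.63 ± 0.27 (adjusted p 0.296). Between BDCA_Normal and Vehicle_Normal limma also called 0 of the 8, with 0 at an unadjusted p below 0.05, and 0.0994% of all tested genes passed, 0.0781% higher and 0.0213% lower. The differences ran from -0.66 ± 0.42 for Oasl2 and -0.66 ± 0.73 for Ifit1 to 0.71 ± 0.53 for Usp18.

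The wider pathway was read from 8 lists by role, with 125 genes besides the members, of which 98 were tested. Between HB and Vehicle_Normal 57 of the 98 were lower and 6 higher, 58.2% and 6.12%, against 23.1% and 37.2% of all tested genes. The median log2 difference was -1.26 against 0.34 over all tested genes. Between HB and HCC 50 were lower and 5 higher, 51.0% and 5.10%, against 21.6% and 28.9% (median -0.87 against 0.19). Between HB and BDCA_Normal 53 were lower and 6 higher, 54.1% and 6.12%, against 22.4% and 34.2% (median -1.06 against 0.28). Without the arrays with high Xist, 43 were lower in HB than in vehicle liver. Trim25 was on 2 of the lists and was counted once in these totals, and Bst2, an effector, was also among the markers of plasmacytoid dendritic cells.

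**Figure D3:**
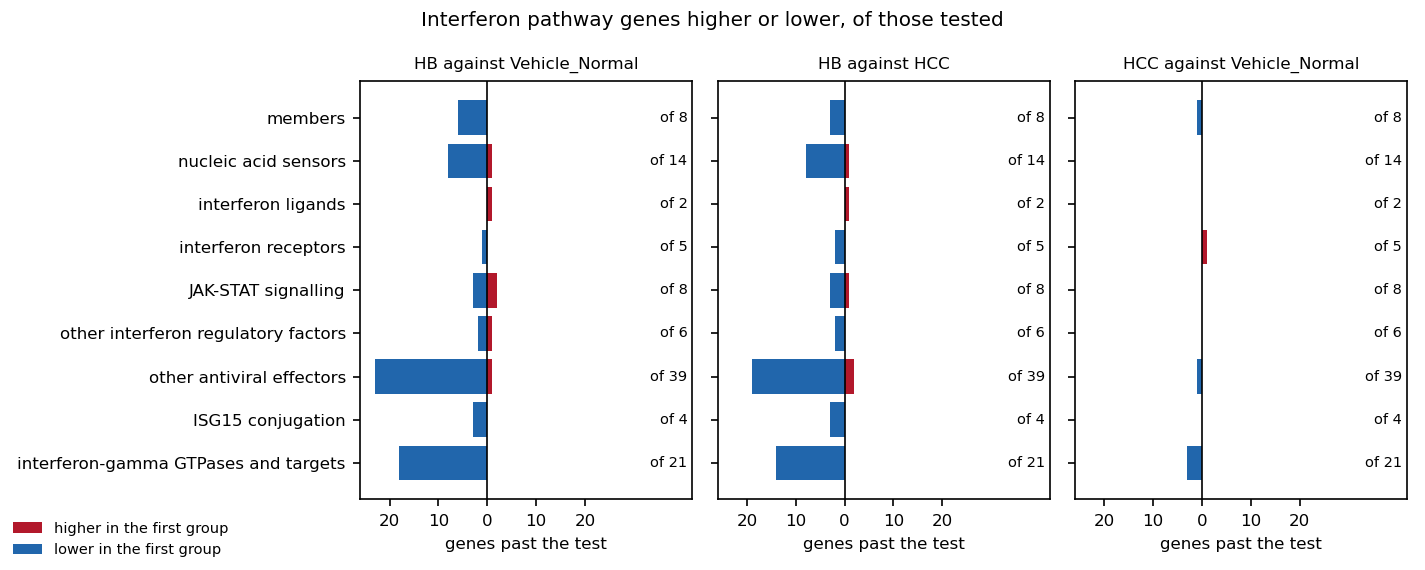
Number of tested genes of each list that were lower (blue, left of 0) or higher (red, right of 0) in the first group, for 3 comparisons, with the number tested at the right of each row. In HB the blue bars are longest for other antiviral effectors, 23 of 39 against Vehicle_Normal, and interferon-gamma GTPases and targets, 18 of 21, and in HCC 4 pathway genes besides Irf9 were lower.

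The list of ligands held 16 genes, of which 9 had a probe set of their own and 2 were tested. Of these 2, 1 was higher in HB than in Vehicle_Normal, where 37.2% of all tested genes were higher. Ifna1, a type I interferon, rose by 2.37 ± 0.37 from Vehicle_Normal to HB (adjusted p 6.57e-06). Its intensity was 415 to 1675 in HB, 86.7 to 342 in HCC, 62.6 to 293 in BDCA_Normal and 65.1 to 191 in Vehicle_Normal. Every HB array was above every other array. The gene was read by a single probe set, and the type I interferon genes are close copies of each other, so the identity of the transcript is uncertain.

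Among 5 tested receptors, 1 fell in HB relative to Vehicle_Normal and none rose, and 1 of 5 is near the 23.1% of all tested genes that were lower. Ifnar2, a subunit of the type I receptor, had an intensity of 444 to 1587 in HB and 4067 to 7126 in Vehicle_Normal, with no overlap. It fell by 2.51 ± 0.24 (adjusted p 1.53e-09), and its other probe sets gave -1.99 and -0.52. Ifngr1, a subunit of the interferon-gamma receptor, was 451 to 2460 in HCC and 261 to 594 in Vehicle_Normal. It rose by 1.61 ± 0.33 in HCC over Vehicle_Normal (adjusted p 0.00353) and by 1.61 ± 0.33 over BDCA_Normal (adjusted p 0.00901), and was lower by -1.83 ± 0.33 in HB than in HCC (adjusted p 5.33e-05).

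Of 8 tested genes of JAK-STAT signalling, 3 fell and 2 rose from Vehicle_Normal to HB, a share of 62.5% called that is near the 60.3% of all tested genes. Jak1, a receptor kinase, fell by 1.32 ± 0.23 (adjusted p 1.86e-05), and its other probe sets gave -0.80 and -0.19. Stat2, the STAT protein of ISGF3, fell by 1.23 ± 0.24 (adjusted p 0.000127). Pias1, an inhibitor of STAT proteins, rose by 1.19 ± 0.27 (adjusted p 0.000497). Stat3 fell by 0.86 ± 0.21 (adjusted p 0.000964), but another of its probe sets rose by 1.28, so its direction is uncertain.

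Of 6 other interferon regulatory factors, 2 fell and 1 rose, fewer called than the 60.3% of all tested genes. The gene that rose was Irf2bp2, a corepressor that binds Irf2, by 0.49 ± 0.21 (adjusted p 0.0463). That call was lost under median centring (0.13, adjusted p 0.638), without the arrays with high Xist (0.64, adjusted p 0.0877) and without Vehicle_Normal replicate 6 (adjusted p 0.133). The 3 other probe sets of Irf2bp2 ran from -0.22 to 1.62, and 2 of them passed as higher in HB. Irf2, which competes with Irf1 for the same promoter elements, fell by 2.13 ± 0.30 in HB (adjusted p 1.22e-06). Its intensity was 245 to 1047 in HB and 2190 to 3669 in Vehicle_Normal. Irf8, a factor of macrophages and dendritic cells, fell by 1.26 ± 0.40 (adjusted p 0.00816), and without the arrays with high Xist it differed by -0.61 (adjusted p 0.393).

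Of 14 nucleic acid sensors and their adaptors, 8 fell and 1 rose from Vehicle_Normal to HB, with a median of -1.42. These are 57.1% and 7.14%, against 23.1% lower and 37.2% higher among all tested genes. Ifih1 encodes MDA5, a sensor of long double-stranded RNA, and had an intensity of 17.3 to 261 in HB, 1499 to 2498 in HCC and 1448 to 2187 in Vehicle_Normal. HB lay far below both. Ifih1 fell by 4.27 ± 0.33 from Vehicle_Normal (adjusted p 3.85e-11) and fell by 4.20 ± 0.35 from HCC (adjusted p 2.30e-10). With 2 of 6 HB arrays below the filter value, the difference from Vehicle_Normal ran from -4.59 to -3.65 between a pseudocount of 1 and 64. Mavs, the mitochondrial adaptor through which Ifih1 signals, fell by 2.10 ± 0.19 (adjusted p 6.04e-10), but its other probe set gave -0.46 and did not pass. Zbp1, a sensor of Z-form nucleic acid, fell by 2.52 ± 0.46 (adjusted p 4.65e-05).

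The sensor that rose was Sting1, the adaptor of the cytosolic DNA pathway. Its intensity was 868 to 1255 in HB, 102 to 378 in HCC, 120 to 293 in BDCA_Normal and 131 to 537 in Vehicle_Normal. All HB arrays were above all others. Sting1 rose by 2.14 ± 0.31 from Vehicle_Normal to HB (adjusted p 1.75e-06), and its other probe set gave 2.92.

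Of 39 other antiviral effectors, 23 fell and 1 rose from Vehicle_Normal to HB, with a median of -1.26. These are 59.0% and 2.56%, against the same 23.1% and 37.2% of all tested genes. Rtp4, an interferon-induced chaperone, had an intensity of 8.67 to 278 in HB and 814 to 3520 in Vehicle_Normal and fell by 3.89 ± 0.47 (adjusted p 9.13e-08), and its other probe set gave -2.43. Trim30a, a regulator of innate signalling, fell by 2.99 ± 0.39 (adjusted p 3.64e-07), with 4 of 6 HB arrays below the filter value. Its difference was -3.46 with a pseudocount of 1 and -2.27 with 64, and its other probe set gave -1.77. Helz2, a helicase, fell by 2.02 ± 0.20 (adjusted p 2.70e-09), and Ifitm3, which restricts viral entry, by 1.55 ± 0.17 (adjusted p 1.89e-08). Ifitm1, of the same family as Ifitm3, moved the other way between HCC and HB. It rose by 3.08 ± 0.50 from HCC to HB (adjusted p 1.38e-05), while Ifitm3 fell by 1.16 between these groups. The intensity of Ifitm1 was 1677 to 15429 in HB, 208 to 2268 in HCC and 1449 to 2847 in Vehicle_Normal. Its lowest HB array thus lay within the range of both other groups.

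The conjugation machinery of Isg15 also fell in HB, in 3 of 4 genes relative to Vehicle_Normal, where 23.1% of all tested genes were lower. Ube2l6, the conjugating enzyme, fell by 2.26 ± 0.46 (adjusted p 0.000155) and Uba7, the activating enzyme, by 1.09 ± 0.33 (adjusted p 0.00624). Trim25, a ligase, fell by 0.47 ± 0.19 (adjusted p 0.0326), a call lost under quantile normalization and, most clearly among single samples left out, without Vehicle_Normal replicate 2 (adjusted p 0.0790). Without the arrays with high Xist, Trim25 differed by -0.21 (adjusted p 0.525) and Uba7 by -1.16 (adjusted p 0.0517), so neither call held there. That setting leaves out 4 of the 6 Vehicle_Normal arrays, and the difference of Uba7 was near its value with all arrays. Relative to BDCA_Normal all 4 fell, among them Herc6 by 1.40, where 22.4% of all tested genes were lower. The 3 other probe sets of Herc6 gave -1.04 to -0.36 and none passed. The other probe sets of Uba7 gave -0.30 and 0.18 there, and neither passed.

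Of 21 interferon-gamma GTPases and targets, 18 fell from Vehicle_Normal to HB and none rose, with a median of -2.15. The share lower was 85.7%, against 23.1% of all tested genes. Iigp1, a GTPase that attacks the vacuoles of intracellular parasites, had an intensity of 24.1 to 1086 in HB, 2164 to 13755 in HCC and 7133 to 16005 in Vehicle_Normal. The HB median, 65.4, was below the filter value. Iigp1 fell by 5.99 ± 0.65 (adjusted p 1.85e-08). Ifi47, a related GTPase, fell by 4.57 ± 0.48 (adjusted p 9.40e-09), Gbp3, a guanylate-binding protein, fell by 3.34 ± 0.46 (adjusted p 9.81e-07) and Psmb10, a subunit of the immunoproteasome, by 2.02 ± 0.24 (adjusted p 1.09e-07). Iigp1 and Ifi47 were below the filter value in 3 of 6 HB arrays and Gbp3 in 4, so their sizes depend on the pseudocount. From a pseudocount of 1 to 64, Iigp1 went from -6.32 to -5.37, Ifi47 from -5.14 to -3.73 and Gbp3 from -3.64 to -2.73.

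In HCC 4 of the 98 genes, 4.08%, were lower than in vehicle liver and 1, Ifngr1, was higher. These shares are near or below the 2.88% lower and 4.36% higher among all tested genes. By list, 3 of the 21 interferon-gamma GTPases and targets were lower, 14.3%, with a median log2 difference of -0.57. Gbp7 fell by 1.53 ± 0.33 (adjusted p 0.00582), Gbp3 by 2.19 ± 0.49 (adjusted p 0.00697), Gbp2 by 2.02 ± 0.54 (adjusted p 0.0240) and Sp100, a nuclear body protein, by 1.58 ± 0.44 (adjusted p 0.0285). Without HCC replicate 5 the adjusted p of Gbp2 was 0.0666 and that of Sp100 was 0.0932. The other probe set of Sp100 gave -0.45. Without the 5 arrays with high Xist none of these 5 calls held, with adjusted p between 0.0616 and 0.532. The differences were then 1.73 for Ifngr1, -2.24 for Gbp3, -1.70 for Sp100 and -1.33 for Gbp7, near the values with all arrays, and -1.003 for Gbp2. Between BDCA_Normal and Vehicle_Normal limma called 0 of the 98, and at an unadjusted p below 0.05, 4 were higher and 8 lower.

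Markers of several cell types were also lower in HB than in Vehicle_Normal. Among all tested genes 23.1% were lower and 37.2% higher in that comparison. All 16 macrophage and Kupffer cell markers were lower in HB than in Vehicle_Normal, with a median log2 difference of -3.20, and their summed intensity was 2903 to 10506 in HB, 9219 to 64280 in HCC, 36474 to 66822 in BDCA_Normal and 26238 to 81189 in Vehicle_Normal. The HB group medians of 6 of the 16 were below the filter value, among them Clec4f and Timd4, which define Kupffer cells. Of 10 endothelial markers 9 were lower in HB, with sums of 1350 to 5288 in HB and 12495 to 17614 in Vehicle_Normal. Of 9 tested lymphocyte markers 6 were lower and 1 was higher, with sums of 274 to 1828 in HB and 1158 to 4600 in Vehicle_Normal. Against BDCA_Normal 2 of these 9, 22.2%, were lower in HB, near the 22.4% of all tested genes. In that comparison 1 of the 9 was higher, where 34.2% of all tested genes were, and the median log2 difference of the 9 was 0.06. Of 10 stellate and fibroblast markers 5 were lower in HB than in Vehicle_Normal, and of 4 tested granulocyte markers 2 were.

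All 9 tested hepatocyte markers were lower in HB too, with a summed intensity of 666 to 62666 against 171595 to 260044 in Vehicle_Normal, and the HB medians of 4 of them, Cps1, Cyp2e1, Tdo2 and Asgr1, were below the filter value. HB replicates 4 and 5 had sums of 62666 and 45873, and the other 4 HB arrays 666 to 3310. Of 8 hepatoblastoma and oncofetal markers 6 were higher. Plasmacytoid dendritic cells, the main source of type I interferon in blood, had 7 tested markers, of which 2 fell and 1 rose. The summed intensity of these 7 was 8299 to 16284 in HB and 2845 to 5530 in Vehicle_Normal. In HCC the sum was 3875 to 11426, reaching into the HB range. A sum follows its brightest genes. The median log2 difference of the 7 between HB and Vehicle_Normal was 0.11, against 0.34 over all tested genes. Siglech, which defines those cells, had a median below the filter value in every group. The part of these cell types in the differences of the interferon response genes was not tested, and in whole tissue fewer cells of a type and less RNA per cell cannot be told apart.

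HCC replicates 1 and 5 stood apart from their group. Replicate 1 had a summed intensity of oncofetal markers of 3840, where the other HCC arrays had 15933 to 59499 and BDCA_Normal at most 4271, and of granulocyte markers of 11050, where the other HCC arrays had at most 1920. It was the HCC array with the lowest Usp18, 154, and the highest Irf7, 1530. Without it 45 of the 98 other pathway genes were lower in HB than in HCC, and 52 were without replicate 5. In replicate 5 the mean log2 level of macrophage markers was 7.48, while the other HCC samples had 9.99 to 10.94. Its level of endothelial markers was 8.36, compared with 10.01 to 10.60. Its hepatocyte markers, at 13.99, lay within the range of the others, 13.15 to 14.39. The mean standardised level of the 8 members was -0.87 in that sample, where the other HCC samples had 0.36 to 0.54 and HB had -1.37 to -0.02. Ifit1 was 4.54, Ifit3 26.9, Oasl2 60.6 and Rsad2 96.2 in that array, each the lowest of HCC, whereas Usp18 was 536. At the other end, Vehicle_Normal replicate 5 had the highest standardised member level and the highest lymphocyte level of all samples, 8.48.

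Across the 23 samples the standardised level of the members had a Pearson r of 0.84 with the macrophage markers and 0.83 with the endothelial markers, and within groups of 0.67 and 0.66. With lymphocyte markers r was 0.67 and within groups 0.71. Many of these 9 markers were dim. Group medians were below the filter value for 6 of them in HB, 5 in HCC, 6 in BDCA_Normal and 2 in Vehicle_Normal. With hepatocyte markers r was 0.69, but 0.12 within groups. It was 0.69 with stellate and fibroblast markers and 0.61 with granulocyte markers, and within groups 0.54 and 0.38. Plasmacytoid dendritic cell markers gave 0.22, and 0.11 within groups. Hepatoblastoma and oncofetal markers gave -0.65, and -0.23 within groups. These describe samples that share arrays and scaling and carry no test.

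**Figure D4:**
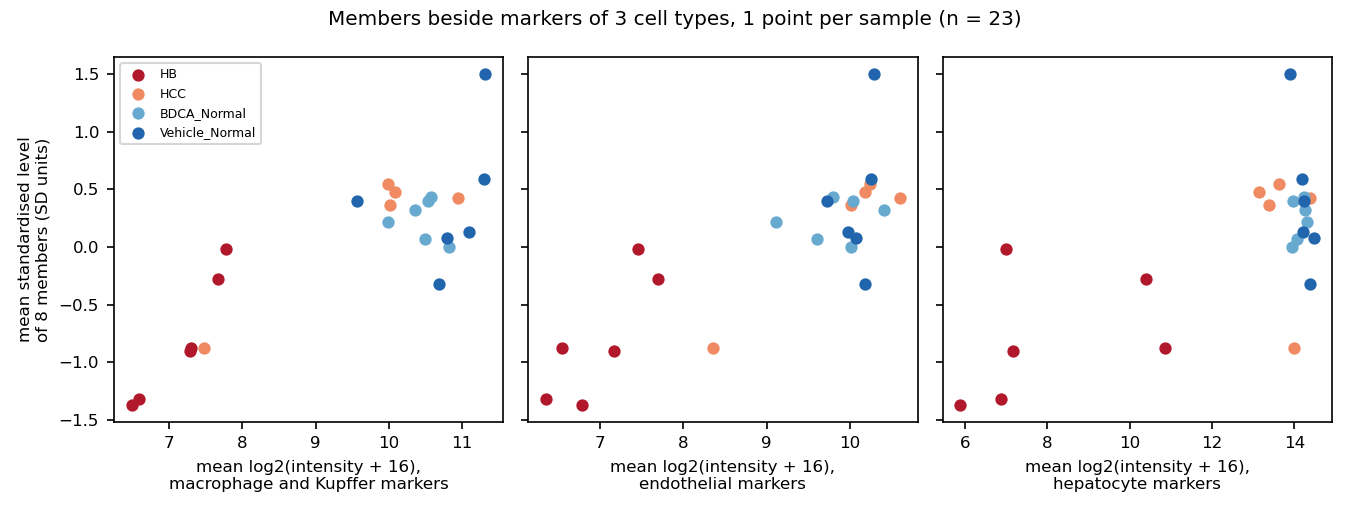
Mean standardised level of the 8 tested members, in SD units, against the mean log2(intensity + 16) of macrophage and Kupffer, endothelial and hepatocyte markers, with 1 point per sample (n = 23) coloured by group. HCC replicate 5, at -0.87, lies among the HB samples for macrophage markers, which is 7.48 there, and with the other HCC samples for hepatocyte markers, at 13.99.

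The members did not all vary together. The r of each member with the mean of the other 7 over the 23 samples was 0.88 for Ifit3, 0.83 for Ifit1, 0.79 for Oasl2, 0.73 for Irf7, 0.71 for Rsad2, 0.56 for Irf9 and 0.41 for Irf1. For Usp18 it was -0.21, and -0.10 within groups. The closest pair was Ifit3 and Oasl2, with r of 0.84, and 0.71 within groups. Usp18 thus stood apart from the members by this measure.

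The tested genes most like the mean standardised level of the members over all 23 samples were Irgm1 (r 0.920), Rtp4 (0.919), Ifi204 (0.910), Vcam1 (0.882), Mndal (0.876), Ctss (0.875), Ddx60 (0.872) and Bmp5 (0.867). Taken within groups they were Rtp4 (0.888), Ptpn22 (0.837), Irgm1 (0.835), Gbp3 (0.825), Ifi204 (0.806), Vcam1 (0.785), Ddx60 (0.776) and Msr1 (0.760). Rtp4, Irgm1, Ifi204, Vcam1 and Ddx60 appeared in both. Msr1, the macrophage scavenger receptor, and Ctss, a lysosomal protease of antigen-presenting cells, appeared in 1 each.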

How the data were processed

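Total RNA of liver, 10 ng per sample, was amplified and hybridised to 24 one-colour arrays, 6 per group, per the labels. The deposited intensities were made by the authors with MAS5, per the submitters' processing notes, and each array's 2% trimmed mean was 500. Version and raw probe values were not given in the sources used here. Of 45101 probe sets, 34945 named 1 gene in an annotation that can be old, 932 several and 9160 none, and there were 64 controls.

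The scale used was log2(intensity + 16). Probe sets stayed in where the 6th highest value exceeded the 40th percentile of all values (66.3), and each gene was represented by its brightest such probe set, giving 14086 tested genes. HCC replicates 3 and 4 were averaged, leaving 23 samples. One limma 3.58.1 model (R 4.3.3, trended variance) covered the 4 groups and 6 comparisons, with two-sided p-values adjusted by Benjamini-Hochberg over all tested genes, threshold 0.05. The script was tested on simulated data.

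Members and lists were chosen with earlier results of these data known. All members are named, with up to 4 genes per list and comparison by smallest adjusted p among those called, and the 8 genes with highest r to the members. A few list genes had no probe set of their own and are not reported. Array number limits the precision. Same-numbered arrays were not treated as paired in the main model. Correlations of their deviations ran from -0.12 to 0.50, with 1 over 0.1, between an HCC and a BDCA_Normal array. These values cannot show whether arrays share an animal. Alternatives covered pseudocount, scaling, filter, probe set choice, prior variance, array weights, replicate block, groups fitted and samples left out.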

Additional observations from a re-analysis of the deposited data

Results flagged for a closer look

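Dixon's test within each group of 6, or 5 for HCC, was run on 36 groups of values, and 2 exceeded the 95% limit of 0.625. Chance alone is expected to give about 1 in 20. Irf1 in HB replicate 1 stood away from the other HB arrays by 0.642 of the group's range, at an intensity of 1224 against a median of 537. Usp18 in HB replicate 4 stood away by 0.657 of the range, at 2048 against a median of 205. Both lay above their group.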

How the results depend on the processing

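No member reversed a called direction under any setting run. Counts that moved by over 1.5 times are given here. Members lower in HB than in HCC, 3 as reported, were 6 under quantile normalization or median centring, and 5 with the most variable probe set, every probe set, array weights, 24 separate arrays, or without HB replicates 4 and 5. Irf9, the 1 member lower in HCC than in Vehicle_Normal, gave 0 under quantile normalization, no filter, the most variable probe set, every probe set and without the arrays with high Xist. Usp18 gave 1 member higher there under the stricter filter, array weights, 24 separate arrays, the 2 groups alone and without HB replicates 4 and 5. With the replicate block on 24 arrays, members lower in HB than in HCC were 5 and members higher in HCC than in Vehicle_Normal were 1, both as in the 24 arrays without the block. Same-numbered arrays correlated best with their own number in 12 of 72 cases. Each case was a choice among 6 arrays, so random choice would give the same number.

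Of other pathway genes, the number higher in HB than in Vehicle_Normal, 6 as reported, was 15 with the most variable probe set and 3 without the arrays with high Xist. That for HB over HCC (5) was 10 with the most variable probe set, and for HB over BDCA_Normal (6) it was 3 under median centring. In HCC against Vehicle_Normal 1 was higher as reported, 2 with no filter, 3 with the most variable probe set, 2 on 24 arrays with or without the block and 0 without the arrays with high Xist, where 1 in place of 4 was lower. In BDCA_Normal against Vehicle_Normal 2 were higher with the most variable probe set. In HCC against BDCA_Normal 2 in place of 1 were higher with no filter and 0 in the 2 groups alone, and 1 was lower with array weights. The cause was not tested.

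Leaving out 1 sample at a time gave 1 to 5 members lower in HB than in HCC, 0 to 1 lower and 0 to 1 higher in HCC than in Vehicle_Normal. For other pathway genes it gave 1 to 2 higher and 2 to 4 lower in HCC than in Vehicle_Normal, and 0 to 1 lower in HCC than in BDCA_Normal. Ifit1 was below the filter value in 4 of 6 HB arrays, which limits the precision of its fold.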
